A study of Mus musculus with 4 samples.

Results

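The 9 genes described here brake the cell cycle in G1: 6 inhibitors of cyclin-dependent kinases (Cdkn1a, Cdkn1b, Cdkn2a, Cdkn2b, Cdkn2c and Cdkn2d) and 3 pocket proteins of the retinoblastoma family (Rb1, Rbl1 and Rbl2). They were chosen by symbol, as the rows of a table of 55421 Ensembl gene identifiers that GENCODE vM21 names so. Tags of their messenger RNA were counted in mouse embryonic stem cells that lack the microRNA cluster from miR-290 to miR-295 (KO, 2 libraries) and in wild-type cells (WT, 2 libraries). Both groups are cultured lines of the 129/Ola strain background, labelled as E14 in the design text and as blastocyst-derived cells by their tissue tag. The medium of both contained serum and LIF, a cytokine that keeps such cells undifferentiated, the plates were coated with gelatin, and no other treatment is named. The libraries are called biological duplicates, but nothing states how many KO clones were used. A p-value here weighs the group difference against the spread between libraries of a group, estimated in part across all genes tested. Whether that spread includes differences between clones is not known.

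Cyclins of the D and E types bind CDK4, CDK6 and CDK2, and the active kinases phosphorylate the pocket proteins. Unphosphorylated pocket proteins hold E2F factors in check, and their phosphorylation releases the genes that E2F drives for S phase. The INK4 inhibitors (the Cdkn2 genes) bind CDK4 and CDK6, whereas the Cip/Kip inhibitors (the Cdkn1 genes) bind several cyclin-kinase complexes. Embryonic stem cells cycle fast with a short G1, keep much of their pocket protein phosphorylated and hold most of these inhibitors at low levels. MicroRNAs of the miR-290 to miR-295 cluster are known in mouse embryonic stem cells as promoters of the step from G1 to S phase, and Cdkn1a and Rbl2 have been described there as direct targets.

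The deleted microRNAs are shown first, because their seeds define the matches searched in the 9 genes. The 3p arms available from RefSeq (GRCm38.p6, chromosome 7, plus strand) are given with the seed, bases 2 to 8, in capitals. The cluster member miR-292a-3p is named without its sequence.
mmu-miR-291a-3p: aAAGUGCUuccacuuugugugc
mmu-miR-294-3p: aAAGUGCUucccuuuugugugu
mmu-miR-295-3p: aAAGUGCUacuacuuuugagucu
mmu-miR-290a-3p: aAAGUGCCgccuaguuuuaagccc
mmu-miR-291b-3p: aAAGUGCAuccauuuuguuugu
mmu-miR-293-3p: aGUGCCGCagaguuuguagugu
The first 3 share the seed AAGUGCU, the next pair differs from it in the last seed base alone, and miR-293-3p has another seed. An mRNA that pairs with the shared 6 bases holds GCACTT. A 7-base match is AGCACTT, which pairs with the whole seed AAGUGCU, or GCACTTA, and an 8-base match is AGCACTTA.

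In the longest annotated 3' UTR of each gene, 4 of the 9 held GCACTT: Cdkn1a, Rb1, Rbl1 and Rbl2. A 7-base match was in 3 of them (Cdkn1a, Rbl1 and Rbl2) and an 8-base match in 2 (Cdkn1a and Rbl2). Among 12491 tested genes with an annotated 3' UTR, 33.3% held GCACTT, 20.9% a 7-base match and 3.47% an 8-base match. The 5 genes with no match were Cdkn1b, Cdkn2a, Cdkn2b, Cdkn2c and Cdkn2d, although the 3' UTR of Cdkn1b was the longest of the 9, with 3439 bases. The strongest match of each gene is printed with its surroundings (GRCm38, 30 bases, match in capitals), and for Cdkn1a the next strongest as well.
Cdkn1a, 8-base, chr17:29100489-29100518, plus strand: gtgggtgtcaaAGCACTTAgtgggtctgac
Cdkn1a, 7-base, chr17:29099817-29099846, plus strand: cagacctgaatAGCACTTtggaaaaatgag
Rbl2, 8-base, chr8:91123815-91123844, plus strand: tgtatttttcaataaAGCACTTAtaaatta
Rbl1, 7-base, chr2:157147466-157147495, minus strand: tgcctgatcaaAGCACTTttggattgttct
Rb1, 6-base, chr14:73196349-73196378, minus strand: acaacccaagtGCACTTtttaatgtttctg
The 8-base match of Cdkn1a begins at base 1107 of a 3' UTR of 1334 bases. The shortest annotated 3' UTR of Cdkn1a, with 184 bases, holds no match. That of Rbl2, with 1171 bases, holds no 7-base or 8-base match. The counts do not record which end a tag came from. The 8-base match of Rbl2 begins at base 1384 of 1398 and ends 7 bases before the annotated transcript end. It shares its first base with an AATAAA, the usual polyadenylation signal, which begins at base 1379. The match of Rbl1 lies at the other end of its 3' UTR and begins at base 22 of 1613.

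**Figure D1:**
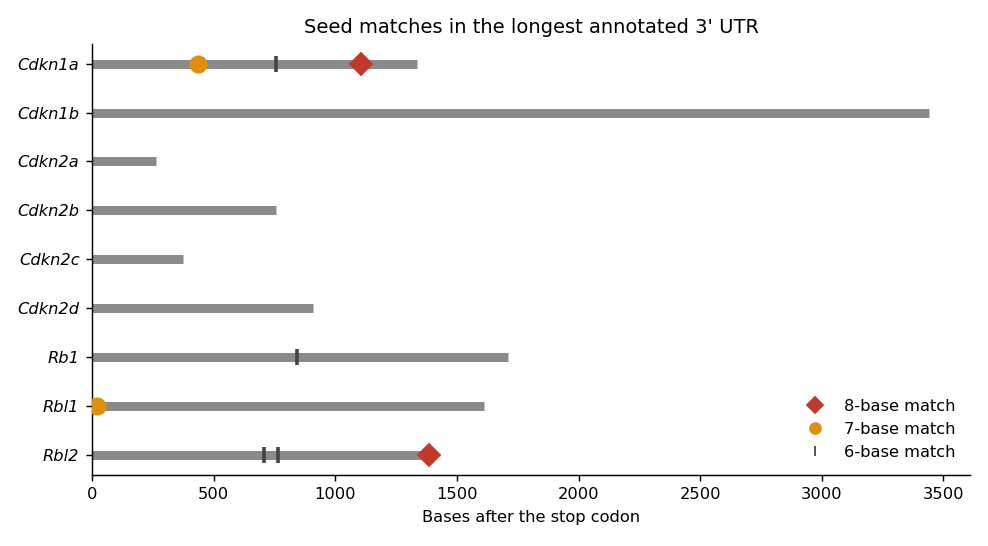
Each grey bar is the longest annotated 3' UTR of a gene, to scale in bases after the stop codon, and marks show 8-base, 7-base and 6-base matches to the seed. Matches lie in Cdkn1a, Rb1, Rbl1 and Rbl2, and the other 5 genes have no mark.

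The libraries held 12726123 and 11764868 counts in KO, and 12163759 and 9925557 in WT. A count of 3, used as the floor, corresponds to 0.236 to 0.302 counts per 1000000 counts of the library (CPM). CPM values are not divided by transcript length, so levels are not compared between genes. At the deleted locus the 7 plus-strand microRNA genes held 0 counts in each KO library, against 88 and 39 in WT libraries 1 and 2. All 7 pluripotent cell markers were tested and 0 were called, with Nanog at 541 and 550 CPM in KO, against 428 and 453 CPM in WT. Their median log2 fold change, KO over WT, was 0.28. In 4 of the 7, both KO libraries lay above both WT libraries, against 29.4% of all genes tested. Dppa5a was called without WT library 1 (0.68) and Sox2 without WT library 2 (0.55). Markers of other lineages moved, where 7.42% of all genes tested were called higher and 4.96% lower. Of 8 primitive endoderm markers, 6 fell and 0 rose, and their summed level was 25.5 and 23.5 CPM in KO, against 165 and 182 CPM in WT. The call of Sox17 was lost without KO library 2 (-2.44). Among the 6 fibroblast or feeder markers, Thy1 had 9.82 and 20.3 CPM in KO, against 26.8 and 50.2 CPM in WT. The other 5 of this list summed to 5.66 and 6.63 CPM in KO, against 14.8 and 13.8 CPM in WT. All 6 together summed to 15.5 and 26.9 CPM in KO, against 41.6 and 64 CPM in WT. Of these, 3 could be tested and fell, Col3a1 and Postn were at 0 in all libraries, and without KO library 1 the calls of all 3 were lost (Col5a1 -0.97, Thy1 -0.90, Col1a1 -2.29). Col1a1 also lost its call without each of the other libraries (-2.09 to -2.22), Col5a1 without KO library 2 (-1.23) or WT library 1 (-1.05), and Thy1 without WT library 2 (-0.85). Of 6 trophectoderm markers, 4 were tested, 1 rose (Tfap2c, 1.78) and 0 fell. Tfap2c had 379 and 230 CPM in KO, against 89.7 and 88.1 CPM in WT, and made up most of the summed level of 395 and 245 CPM in KO, against 100 and 113 CPM in WT. The other 5 summed to 15.3 and 15.1 CPM in KO, against 10.8 and 24.6 CPM in WT. In bulk RNA, fewer cells of a type and less RNA per cell cannot be told apart. Whether cells of other types were present, or added to the values below, was not tested.

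Cells without the cluster had more RNA of Cdkn2a, the gene of p16INK4a and p19ARF, and of Cdkn1b, the gene of p27KIP1. Of the 9 genes, 8 passed the filter on low counts, and Cdkn2c did not. Of these 8, 2 were called higher and 0 lower by the quasi-likelihood test of edgeR, where a call is a p below 0.05 after Benjamini-Hochberg adjustment over all genes tested. Over all 14427 genes tested, 7.42% were called higher and 4.96% lower. Both calls were CDK inhibitors, and 0 of the 3 pocket proteins were called. Without WT library 2 the number called was 4, with Cdkn1a and Cdkn2d added, and without any other single library it was 1, Cdkn2a. The median log2 fold change, KO over WT, was 0.75 for the 5 CDK inhibitors tested and 0.24 for the pocket proteins, against -0.0062 over all genes tested. With 1 library left out, the median of the pocket proteins lay between -0.01 (without WT library 2) and 0.48 (without WT library 1). In 5 of the 8, both KO libraries lay above both WT libraries, and in 0 they lay below. Over all genes tested these shares were 29.4% and 28.5%.

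**Figure D2:**
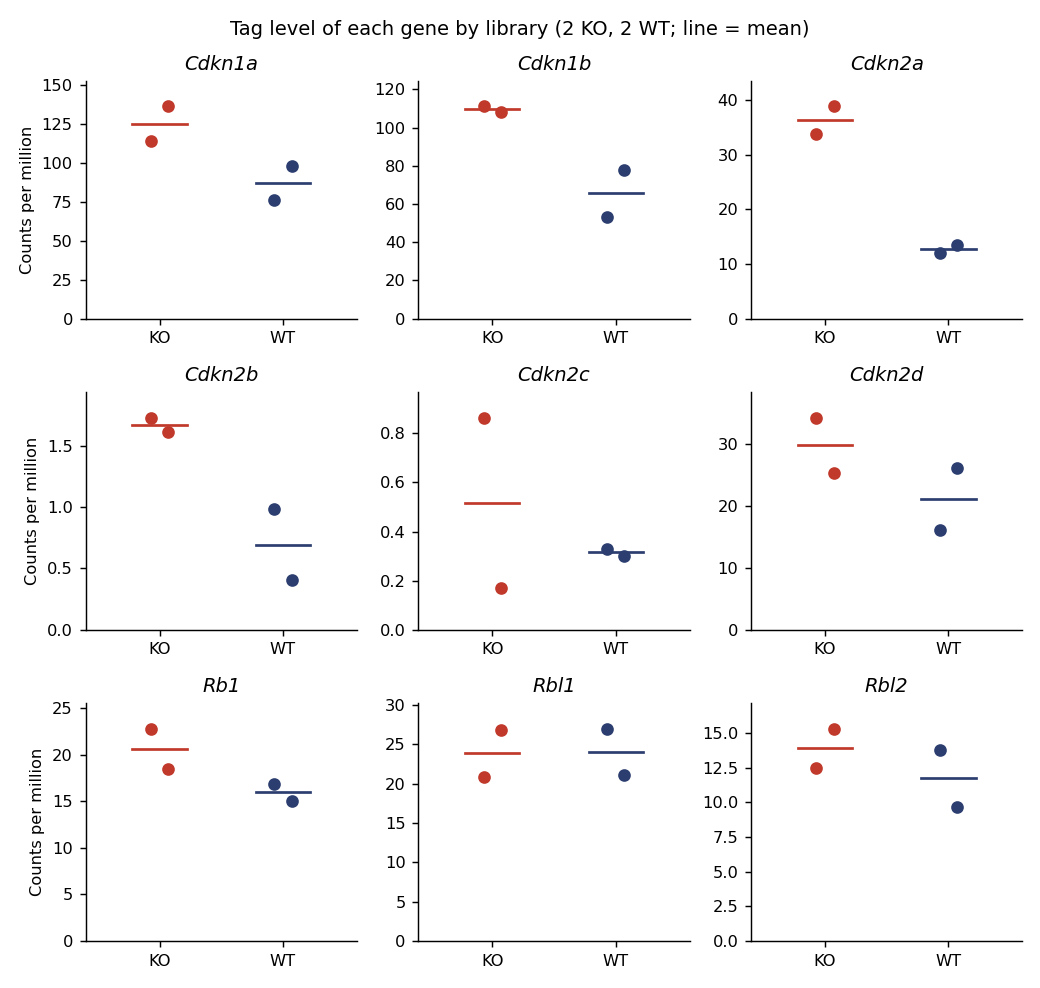
Tag levels of the 9 genes in CPM, each panel from 0, with 2 KO libraries on the left, 2 WT libraries on the right and a line at each mean. The groups are apart for Cdkn1a, Cdkn1b, Cdkn2a, Cdkn2b and Rb1, and they overlap for Cdkn2c, Cdkn2d, Rbl1 and Rbl2.

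Among the INK4 genes, Cdkn2a rose and the others were not called. It stood at 33.7 and 38.8 CPM in KO libraries 1 and 2, against 12 and 13.5 CPM in WT libraries 1 and 2. All 4 values lie close to their own partner and far from the other group. The means were 36.3 ± 3.63 CPM in KO and 12.8 ± 1.06 CPM in WT (SD, n = 2 each). The log2 fold change was 1.51 (SE 0.22, edgeR adjusted p = 0.00332), a 2.85-fold higher level. With each library left out in turn it lay between 1.41 and 1.62, and it was called in every such fit. The gene (ENSMUSG00000044303) spans 89274471 to 89294653 on the minus strand of chromosome 4. Its proximal transcript encodes p16INK4a, an inhibitor of CDK4 and CDK6, and its distal transcript encodes p19ARF, which restrains MDM2 and so protects p53. Both end in the same last exon region, so a 3' tag counts them together and cannot tell which one rose.

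Cdkn2b, the gene of p15INK4b, is the neighbour of Cdkn2a on the same strand, 11646 bases away. It had few tags, with 22 and 19 counts in KO, against 12 and 4 counts in WT. The 41 counts in KO have a 95% Poisson interval of 29.4 to 55.6, and the 16 in WT one of 9.15 to 26, which cover counting error only. Both KO libraries lay above both WT libraries, but the log2 fold change of 1.22 (SE 0.63) was not called (edgeR adjusted p = 0.238). It was 2.04 without WT library 1 and 0.74 without WT library 2, and not called in either. The next tested gene below the pair, the methylthioadenosine phosphorylase gene Mtap, gave -0.57 (adjusted p = 0.0741), and -0.69 with a call without WT library 1 (adjusted p = 0.0259). The next tested gene above it, Elavl2, which encodes an RNA-binding protein, lies 1939724 bases from Cdkn2b and rose by 0.76 (adjusted p = 0.0172). The call of Elavl2 was lost without KO library 1 (0.76, adjusted p = 0.0925) or KO library 2 (0.77, adjusted p = 0.083). Neighbours, here and below, are the nearest tested gene on each side, and they were taken up with their values known.

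Cdkn2d, the gene of p19INK4d, had 34.3 and 25.4 CPM in KO, against 16.2 and 26.2 CPM in WT. KO library 2 lies just under WT library 2, so the groups overlap. The log2 fold change was 0.50 (SE 0.27, edgeR adjusted p = 0.258), and without WT library 2 it was 0.86 and called (adjusted p = 0.031). Cdkn2d shares its surroundings with a gene that changed and one that did not pass: Ap1m2, an adaptor subunit of epithelial cells, gave 1.06 (adjusted p = 0.0312), and Kri1, whose start lies 441 bases beyond the end of Cdkn2d on the same strand, gave -0.54 (adjusted p = 0.112). The call of Ap1m2 held without WT library 2 (1.29), and it was lost at 0.91 without KO library 1, at 1.21 without KO library 2 and at 0.86 without WT library 1. Cdkn2c, the gene of p18INK4c, was near the floor, with 11 and 2 counts in KO, against 4 and 3 counts in WT. The group sums were 13 in KO (95% Poisson interval 6.92 to 22.2) and 7 in WT (2.81 to 14.4). These intervals overlap, which is no test of a difference, and Cdkn2c was not tested in the fit of all libraries.

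Of the Cip/Kip genes, Cdkn1b rose. It had 111 and 108 CPM in KO, against 53 and 78 CPM in WT. The KO libraries agree closely, and the WT libraries differ from each other by nearly as much as WT library 2 differs from KO. The means were 110 ± 2.35 CPM in KO and 65.5 ± 17.6 CPM in WT (SD, n = 2 each). The log2 fold change was 0.75 (SE 0.20, edgeR adjusted p = 0.0371), a 1.68-fold higher level. Leaving out KO library 1 (0.73, adjusted p = 0.15), KO library 2 (0.77, adjusted p = 0.122) or WT library 1 (0.51, adjusted p = 0.0615) ended the call, and it held without WT library 2 (1.03). The protein p27KIP1 inhibits CDK2 complexes and is removed largely by ubiquitin-dependent degradation, which RNA does not show. The gene (ENSMUSG00000003031) spans 134920401 to 134925513 on the plus strand of chromosome 6, whose tested genes had a median of 0.0758.

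The long non-coding RNA Lockd begins 3579 bases beyond Cdkn1b on the same strand. It held 481 and 344 counts in KO, against 97 and 136 counts in WT. Lockd rose by 1.64 (SE 0.29, edgeR adjusted p = 0.00829), and it was called in each fit with 1 library left out, at 1.31 to 2.05. Lockd is known in mouse erythroid cells as a transcript whose locus acts on Cdkn1b. The table does not show whether tags from extended Cdkn1b transcripts were counted on Lockd.

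Cdkn1a, the gene of p21CIP1 and a classic p53 target, had 114 and 136 CPM in KO, against 76.2 and 97.6 CPM in WT. Both KO libraries lie above both WT libraries, with a gap smaller than the spread within either group. The means were 125 ± 15.6 CPM in KO and 86.9 ± 15.1 CPM in WT (SD, n = 2 each). The log2 fold change of 0.53 (SE 0.18) did not pass (edgeR adjusted p = 0.0827). Without WT library 2 it was 0.70 and called (adjusted p = 0.0143), and without WT library 1 it was 0.38 (adjusted p = 0.172). It also passed when no gene was filtered out (0.54, adjusted p = 0.04). Of its neighbours on chromosome 17, Trp53cor1, the gene of lincRNA-p21, held 13 and 12 counts in KO, against 10 and 9 counts in WT (0.24, adjusted p = 0.833). Cpne5, a copine gene 54829 bases away, gave 1.00 (adjusted p = 0.0496), a call lost without KO library 2 (0.77) or WT library 1 (0.61).

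The pocket protein genes showed no called change. Rb1, the retinoblastoma gene, had 22.8 and 18.5 CPM in KO, against 16.9 and 15 CPM in WT. Both KO values exceed both WT values, and the log2 fold change was 0.37 (SE 0.24, edgeR adjusted p = 0.35). It was 0.22 without KO library 1 and 0.52 without KO library 2. Rbl1, the gene of p107, had 20.9 and 26.9 CPM in KO, against 27 and 21.1 CPM in WT. These ranges cover each other almost completely, with means of 23.9 ± 4.21 CPM in KO and 24 ± 4.18 CPM in WT (SD, n = 2 each). Its log2 fold change was -0.01 (SE 0.24), and it took either sign when a library was left out, between -0.20 and 0.20. Rbl2, the gene of p130, had 12.5 and 15.3 CPM in KO, against 13.8 and 9.67 CPM in WT. WT library 1 lies between the KO libraries, so the groups overlap. The log2 fold change of Rbl2 was 0.24 (SE 0.29, edgeR adjusted p = 0.648), with values between -0.01 and 0.54 when a library was left out. The SE exceeds the estimate, so these libraries do not show that Rbl2 stayed level.

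Overlapping genes limit the reading of Rb1 and Rbl2, since the strand setting of the counting is not given in the sources used here. The end of Rb1 lies within Rcbtb2, a gene of the opposite strand that held 277 and 156 counts in KO, against 130 and 87 counts in WT (0.85, adjusted p = 0.107). The receptor gene Lpar6 lies inside Rb1, also on the opposite strand, with 660 and 538 counts in KO, against 507 and 134 counts in WT (0.81, adjusted p = 0.236). The end of Rbl2 lies within Aktip, again on the opposite strand, which held 441 and 341 counts in KO, against 411 and 367 counts in WT (-0.15, adjusted p = 0.673). Lpar6 gave 1.87 with a call without WT library 1, and 0.21 without WT library 2 (adjusted p = 0.535). Beside Rb1, the leukotriene receptor gene Cysltr2 held 113 and 79 counts in KO, against 27 and 14 counts in WT, and rose by 2.08 (adjusted p = 0.0153), a call lost without KO library 1 (1.88, adjusted p = 0.0705), while Itm2b on the other side gave 0.36 (adjusted p = 0.202). The neighbours of Rbl1, Samhd1 (-0.10) and Rpn2 (0.05), and of Rbl2, Chd9 (-0.40) and Rpgrip1l (0.99, adjusted p = 0.0893), were not called. The same held for Rnf11 (-0.15) and Faf1 (-0.25) beside Cdkn2c and for 2810454H06Rik (0.91) before Cdkn1b.

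**Figure D3:**
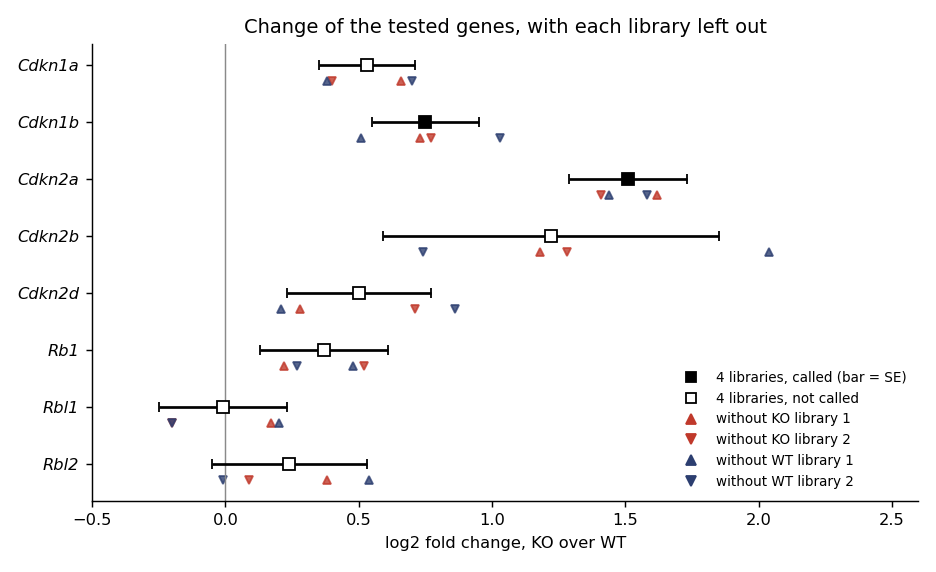
Squares show the log2 fold change (KO over WT) of the 8 tested genes with its SE, filled where called, and triangles the value with 1 library left out. Cdkn2a stays between 1.41 and 1.62, Cdkn2b ranges from 0.74 to 2.04, and the triangles of Rbl1 and Rbl2 lie on both sides of 0.

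Set beside the seed matches, the 2 called genes, Cdkn2a and Cdkn1b, hold no GCACTT in the longest annotated 3' UTR. The genes with an 8-base match, Cdkn1a and Rbl2, gave 0.53 and 0.24. Rbl1, with a 7-base match, gave -0.01, and Rb1, with a 6-base match, gave 0.37. None of these 4 was called. With so few genes no relation between match and change was tested.

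The kinase side of the pathway, on which the inhibitors act, changed in both directions. Of 8 G1 cyclin and kinase genes, 2 rose and 1 fell, where the shares over all genes tested were 7.42% and 4.96%. Ccnd2, the gene of cyclin D2, had 411 and 492 CPM in KO, against 17.6 and 16.3 CPM in WT, a log2 fold change of 4.73 (SE 0.18, edgeR adjusted p = 6.21e-06). Cdk4, the kinase that INK4 proteins bind, had 225 and 220 CPM in KO, against 154 and 145 CPM in WT (0.57, adjusted p = 0.0324). Ccne1, the gene of cyclin E1, had 157 and 151 CPM in KO, against 246 and 220 CPM in WT (-0.60, adjusted p = 0.0318). Cdk6, the other INK4 partner, gave 0.68 and was not called (adjusted p = 0.125), with 80.2 and 151 CPM in KO, against 75.3 and 68.8 CPM in WT. Ccnd2 was called with each library left out. Cdk4 lost its call without KO library 1 (0.57, adjusted p = 0.222) or KO library 2 (0.59, adjusted p = 0.187), and Ccne1 likewise (-0.62, adjusted p = 0.191, and -0.56, adjusted p = 0.241). Cdk6 depended on which KO library was used: it was called without KO library 1 (1.08, adjusted p = 0.0136) and was at 0.16 without KO library 2 (adjusted p = 0.833).

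The factors that pocket proteins bind, and the genes that those factors serve, had few calls, and each of them was lower. Over all genes tested, 7.42% were called higher and 4.96% lower, and no difference from these shares was tested. Of 10 E2F and DP genes 0 rose and 1 fell: E2f2, an activating E2F, had 56.3 and 48.4 CPM in KO, against 87.7 and 116 CPM in WT (-0.96, SE 0.19, edgeR adjusted p = 0.0129). Its call was lost without KO library 2 (-0.85, adjusted p = 0.0942). The MuvB core joins p107 or p130 in the DREAM complex, and MYB proteins and FOXM1 bind it in other complexes. Of 8 genes for these, 0 were called, with a median of -0.06 that took the other sign without WT library 1 (0.13). Lin9 (0.40), Mybl2 (-0.31), Lin37 (0.35) and Rbbp4 (-0.13) had the smallest p-values there. Lin9 was at 0.13 with chromosome medians removed (chromosome 1 had a median of 0.269) and at 0.23 without WT library 2, and Mybl2 at -0.15 without WT library 2. Of 20 G1/S genes that E2F binds, 2 fell and 0 rose, with a median of -0.11. These were the origin gene Orc1 (-0.61, adjusted p = 0.0357) and the helicase gene Mcm4 (-0.58, adjusted p = 0.048). Both lost their call without KO library 1 (-0.65 and -0.64) or KO library 2 (-0.56 and -0.51), and Mcm4 also without WT library 1 (-0.39). Tyms (0.47) and Mcm5 (-0.36) were not called, and Tyms was called without WT library 1 (0.55, adjusted p = 0.0395). Of 16 G2/M genes that DREAM binds, 0 were called, with a median of -0.19. Of these, 14 were below 0, and in 7 both KO libraries lay below both WT libraries, against 0 above. The order was not particular to these genes. Below and above were 6 and 1 of the 10 E2F and DP genes, and 11 and 4 of the 20 G1/S genes. For the 8 MuvB and partner genes they were 2 and 2. Over all genes tested, 28.5% lay below and 29.4% above. The median of the G2/M genes was -0.13 without KO library 2, with 11 below 0. The nearest to a call were Kif20a (-0.54), Aurka (-0.42), Cenpe (-0.32) and Cdc20 (-0.29). Aurka was called without WT library 2 (-0.52, adjusted p = 0.042).

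**Figure D4:**
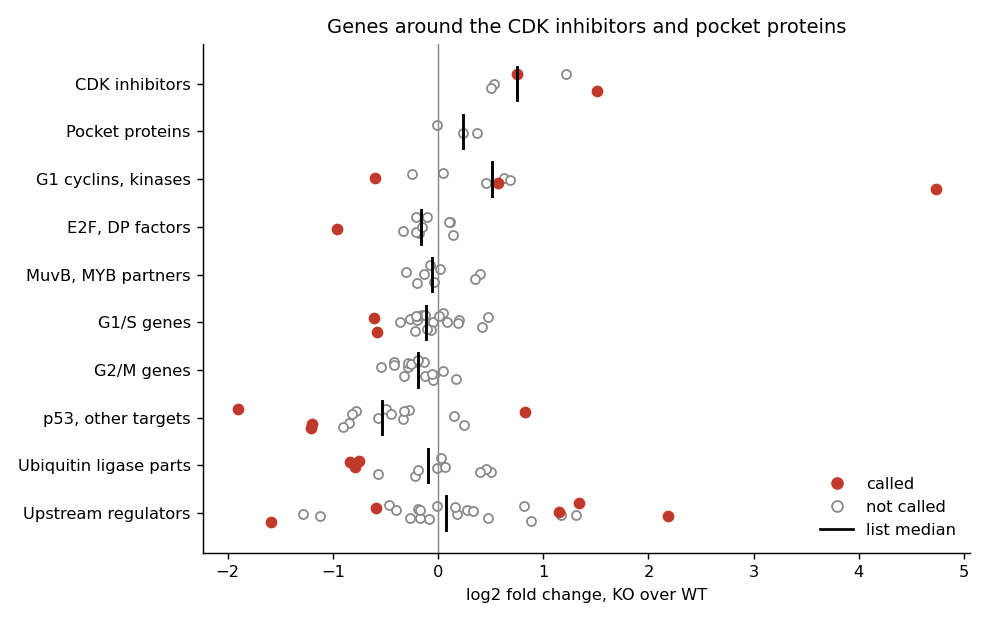
Each point is a tested gene at its log2 fold change (KO over WT), filled where called, with a bar at the list median. The CDK inhibitors have a median of 0.75, the pocket proteins of 0.24, and the G1/S and G2/M genes of -0.11 and -0.19.

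Genes that act on the inhibitors or on related cell cycle proteins were examined next. p53 drives Cdkn1a, and of p53 with 15 of its other targets 3 fell and 1 rose, out of 16 genes with a median of -0.54. Over all genes tested, 4.96% were called lower and 7.42% higher, and no list here was tested against these shares. The BH3 gene Pmaip1 (-1.90, SE 0.31, edgeR adjusted p = 0.00545), the antiproliferative gene Btg2 (-1.21, adjusted p = 0.00731) and Trp53inp1 (-1.20, adjusted p = 0.0188) fell, whereas Ei24 rose (0.83, adjusted p = 0.0232). The median leans on WT library 1: it was -0.29 without that library and -0.83 without WT library 2. Cdkn1a, at 0.53, lay on the other side of 0 from these medians, and on the same side as Ei24. Of the 16 genes, 13 were below 0 and 3 above. Trp53inp1 lost its call without KO library 2 (-1.06) and was at -0.70, still called, without WT library 1. Ei24 lost its call without KO library 2 (0.71). Of 12 ubiquitin ligase parts that turn over cell cycle proteins, among them CDK inhibitors, 3 fell and 0 rose. These were Cul4b (-0.79, adjusted p = 0.0152), a scaffold of CUL4 ligases, Uhrf2 (-0.84, adjusted p = 0.0278) and Fbxw7 (-0.75, adjusted p = 0.0298), whose protein directs cyclin E to degradation. Ccnf (-0.57) was not called, and was called without WT library 2 (-0.63, adjusted p = 0.0293). The calls of Cul4b and Fbxw7 were lost without KO library 1 (-0.78 and -0.70) or KO library 2 (-0.79 and -0.79), that of Uhrf2 without KO library 2 (-0.64), and that of Fbxw7 also without WT library 1 (-0.52).

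Of 24 upstream regulators of the inhibitor genes, 3 rose and 2 fell, with a median of 0.08 (-0.06 without KO library 2). The shares over all genes tested were 7.42% called higher and 4.96% lower, and no difference from them was tested. Klf4, a zinc finger factor that activates Cdkn1a in several cell types, had 122 and 167 CPM in KO, against 352 and 519 CPM in WT (-1.59, SE 0.21, edgeR adjusted p = 0.00234). Tfap4, whose protein represses Cdkn1a in human cells, had 50.4 and 43.3 CPM in KO, against 19.9 and 17 CPM in WT (1.34, adjusted p = 0.00469). Mycn, the N-MYC gene, rose by 1.15 (adjusted p = 0.00933). Id2, an inhibitor of bHLH factors that also binds pocket proteins, rose by 2.19 (adjusted p = 0.0196), which rests on KO library 2: it had 44.4 and 159 CPM in KO, against 25.4 and 18.8 CPM in WT, and gave 1.01 without that library (adjusted p = 0.0751). Cbx7, a Polycomb subunit that represses the locus of Cdkn2a and Cdkn2b, had 170 and 142 CPM in KO, against 255 and 214 CPM in WT. It fell by 0.59 (adjusted p = 0.0487) and is named because it completes the lower pair. The other Polycomb genes of the list went both ways, and none was called. Bmi1 (1.17, adjusted p = 0.0846), Rnf2 (0.27) and Ring1 (0.18) lay above 0. Ezh2 (-0.47, adjusted p = 0.0561), Eed (-0.40) and Suz12 (-0.0062) lay below it. Cbx7 was no longer called when KO library 1 (-0.71), KO library 2 (-0.46) or WT library 1 (-0.44) was left out. Klf4, Tfap4 and Mycn were called with each library left out.

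Promoters of 8 of the 9 genes, without Rb1, were searched for letters that p53, E2F and TFAP4 are known to bind. Both strands of the RefSeq windows were read (GRCm38.p6, 250 bases before to 50 after each annotated start). Letters of the other regulators above, such as KLF4 and N-MYC, were not searched. CATGNNNNNNCATG, a pair of p53 core motifs, was found in 1 of the 11 windows and in 0.713% of 32841 windows of all genes. E2F words (TTTCCCGC, TTTCGCGC, TTTGCCGC or TTTGGCGC, with no overlap with the other motifs in these windows) were found in 2 of the 11, and in 2.27% of all. CAGCTG, the E-box that TFAP4 binds, was found in 2 of the 11, and in 16.3% of all. The 3 windows with a match are printed, with matches in capitals, as they show where p53, E2F and TFAP4 letters lie in an INK4, a Cip/Kip and a pocket protein gene.
Cdkn2a, distal start, chr4:89294570-89294869, minus strand: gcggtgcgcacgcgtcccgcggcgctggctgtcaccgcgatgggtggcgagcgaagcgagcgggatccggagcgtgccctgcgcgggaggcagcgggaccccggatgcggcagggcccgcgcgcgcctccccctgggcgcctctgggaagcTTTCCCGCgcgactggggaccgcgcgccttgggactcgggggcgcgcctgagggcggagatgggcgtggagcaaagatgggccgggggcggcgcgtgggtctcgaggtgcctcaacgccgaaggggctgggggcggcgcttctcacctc
Cdkn1a, upstream start, chr17:29090729-29091028, plus strand: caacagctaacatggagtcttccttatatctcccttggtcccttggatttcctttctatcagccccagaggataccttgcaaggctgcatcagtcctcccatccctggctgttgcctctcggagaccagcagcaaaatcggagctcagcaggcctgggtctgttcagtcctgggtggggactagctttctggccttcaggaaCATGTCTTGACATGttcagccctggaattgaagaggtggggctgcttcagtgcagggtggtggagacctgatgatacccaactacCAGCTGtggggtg
Rbl1, chr2:157204485-157204784, minus strand: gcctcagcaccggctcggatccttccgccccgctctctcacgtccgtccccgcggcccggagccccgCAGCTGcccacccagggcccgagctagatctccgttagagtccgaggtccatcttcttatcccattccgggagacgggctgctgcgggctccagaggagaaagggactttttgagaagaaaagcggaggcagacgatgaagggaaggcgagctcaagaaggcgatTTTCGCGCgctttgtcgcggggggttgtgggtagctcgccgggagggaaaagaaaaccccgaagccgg
In Cdkn1a the p53 letters begin 48 bases before the upstream start and CAGCTG 37 bases after it. In Cdkn2a the E2F word begins 99 bases before the distal start, that of p19ARF. In Rbl1 it begins 18 bases before the start. A match of letters does not show binding, and the table cannot assign tags to a start.

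Finally, the genes whose pattern was nearest to 2 of the 9 were listed, by Euclidean distance of centred log2 CPM over the 4 libraries among 8711 genes with a mean of at least 10 CPM. Nearest to Cdkn2a, the CDK inhibitor with the smallest p, were Gpa33 (distance 0.111), Ttc28 (0.116) and Ctdsp1 (0.123), with log2 fold changes of 1.44, 1.59 and 1.45. Nearest to Rb1, the pocket protein with the smallest p, were Scamp1 (0.0401), Slc23a2 (0.0554) and Ipmk (0.0622), with 0.41, 0.42 and 0.41. The first 3 were called, Ctdsp1 not without KO library 2 (1.35), and the other 3 were not. The distances rest on 4 libraries and are a description.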

How the data were processed

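The deposited file is a table of unnormalized counts for 55421 Ensembl genes in 4 libraries (2 KO, 2 WT). Per the labels' protocols, RNA was taken with Trizol and made into QuantSeq 3' FWD libraries, so a count is a tag near a transcript's end, CPM values are not divided by length, and levels are not compared between genes. Per the submitters' processing notes, Trim Galore and GRCm38 were used. The sources used here name no aligner, counter or strand setting.

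Counts were tested with edgeR 4.0.16 (R 4.3.3; TMM, filterByExpr, quasi-likelihood F test, two-sided, Benjamini-Hochberg over 14427 genes, threshold 0.05, biological coefficient of variation 0.198). The SE was derived as the size of the log2 value over the root of its F statistic. CPM values use the library total. No molecular identifiers are named, so Poisson intervals cover counting error only. The likeness measure added 0.5 to TMM-scaled CPM. Annotation was GENCODE vM21; 55240 identifiers had a symbol. The fit was tested on simulated counts.

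Named genes were the 9 genes, up to 4 of each list with the smallest p, and the 3 nearest patterns of a CDK inhibitor and a pocket protein. Neighbouring and overlapping genes, Cbx7 and the other Polycomb genes were named after their values were seen. The genes and lists were chosen with earlier results of these data known. Alternatives were DESeq2 1.42.0 (size factors and test), library totals, other filters, a replicate block, removed chromosome medians, each library left out and other 3' UTR choices.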

Additional observations from a re-analysis of the deposited data

How the results depend on the processing

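Cdkn2a was called higher in every alternative run. Cdkn1b kept its direction in all of them, but lost its call with a mean CPM filter of at least 10 (0.72, adjusted p = 0.0561), with chromosome medians removed (0.67, adjusted p = 0.0549) and with the replicate block (0.77, adjusted p = 0.0634), so that 1 of the 9 genes was called under each of these. Cdkn1a was called without a filter (0.54, adjusted p = 0.04). With 1 library left out, the number of the 9 called higher lay between 1 and 4, Cdkn1a between 0.38 and 0.70, Cdkn1b between 0.51 and 1.03, Cdkn2d between 0.21 and 0.86, Rbl1 between -0.20 and 0.20 and Rbl2 between -0.01 and 0.54. Rbl1 also changed sign with chromosome medians removed (0.01). Of the trophectoderm markers that changed sign, Eomes gave 0.20 with the replicate block and between -0.88 and 1.46 with a library left out, and Krt8 gave 0.14 with chromosome medians removed and between -0.28 and 0.22 with a library left out. The cause was not tested.

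Of all genes tested, 1071 were called higher and 715 lower. The counts were 636 and 391 with the mean CPM filter, 636 and 369 with the replicate block, 1193 lower without a filter, and 556 to 1477 higher and 285 to 1011 lower with 1 library left out. Of the genes of the other lists, 7 were called higher and 21 lower. Those counts were 15 higher without a filter, 13 lower with the mean CPM filter, 4 and 13 with the block, and 4 to 14 and 10 to 32 with 1 library left out. The sample titles do not say whether equally numbered libraries were handled together. Their deviations correlated at -0.0703 over the genes tested, and shared handling was not tested. The shortest 3' UTR left 1 of the 9 genes, Rbl1, with a 7-base match in place of 3. Of tested genes with an annotated 3' UTR, 11.9% held one in the shortest, against 20.9% in the longest. Depth limits Cdkn2c and Cdkn2b, which held 13 and 41 counts in KO, against 7 and 16 in WT.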
